A study of Mus musculus with 35 samples.

Results

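Intestinal epithelium is held to its identity by a small set of transcription factors, and 10 of them were followed here in single mouse small-intestinal cells: Cdx1 and Cdx2, Hnf4a and Hnf4g, Gata4, Gata5 and Gata6, Klf4 and Klf5, and Elf3. They were taken by name from 23538 genes, and all 10 were found in every matched count table and passed the filter on low counts in every comparison. CDX factors are caudal-type homeobox proteins that specify hindgut and midgut epithelium. The HNF4 factors are nuclear receptors that drive lipid-handling and brush border genes in absorptive cells. GATA zinc finger factors pattern the gut along its length and in mice GATA4 marks proximal small intestine, where it holds back ileal genes. Klf5 is known for its part in crypt cell proliferation and Klf4 for its part in goblet cell differentiation, and Elf3 is an epithelial ETS factor needed for normal enterocyte and goblet cells in mice.

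Cells were sorted singly into 96-well plates and sequenced by CEL-seq, which counts each transcript once at its 3' end, so that levels do not depend on transcript length. All mice were on the C57BL/6 background. Organoids, the source of the first 3 groups, are epithelial cultures grown from crypts in Matrigel with EGF, R-spondin 1 and Noggin, and each of these groups descended from a single mouse with passages as replicates. Reg4-positive organoid cells were sorted from a Reg4-dsRed-knock-in culture in 2 replicates, where Reg4 marks secretory cells. Lgr5-positive organoid cells, stem cells in culture, were sorted from an Lgr5-GFP-DTR culture in 1 replicate. Whole organoid cells were taken at random from a wild-type culture in 2 replicates. The ex vivo groups came directly from intestine, with no statement of how many animals their plates came from. The YFP group (genotype label Lgr5-YFP) held progeny of Lgr5-expressing cells 5 days after Cre driven from Lgr5 had switched on YFP at Rosa26, in 5 plates. The Lgr5-EGFP group held crypt stem cells sorted by EGFP in 2 plates.

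Of 1680 wells, 1209 held at least 1500 counts and were kept. Kept counts per replicate ranged from 287001 to 2860636, and the median kept well held 4608 to 13131.5 counts. Replicates of organoid groups are passages and those of ex vivo groups are plates, so p-values measure the spread between these libraries, which may be technical. In Reg4-positive replicate 2, 3 wells of more than 100000 counts together held 49.3% of the counts. Levels are given in CPM, the share of a replicate's counts scaled by its TMM factor, or in raw CPM, without that factor. The summed level of 24 enterocyte markers was 2849 and 3708 raw CPM in Reg4-positive cells, 1531 in Lgr5-positive organoid cells, 36117 and 19129 in whole organoid cells, 1920 to 8151 in YFP plates and 960 and 1005 in Lgr5-EGFP plates. The summed level of 13 stem markers was 1660 and 1350 raw CPM in Reg4-positive cells, 2716 in Lgr5-positive organoid cells, 655 and 902 in whole organoid cells, 1364 to 1941 in YFP plates and 2724 and 2350 in Lgr5-EGFP plates. Enterocyte markers were highest in whole organoid cells and stem markers in both Lgr5 sorts. Markers of other tissues were near 0: the 11 gastric markers summed to at most 28.7 raw CPM, the 5 colon markers to at most 11.8, the 9 immune markers to at most 83.6, the 9 stromal markers to at most 29.6 and the 3 squamous markers to at most 1.10 in every replicate. Of the 9 immune markers, 1 to 6 had a count in each YFP plate, and the single one tested rose in YFP over Lgr5-EGFP plates (log2 fold change 4.17). A higher level can come from more wells holding the transcript or from more of it per well, so fewer cells of a type and less RNA per cell cannot be told apart.

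Ranked by mean CPM, Hnf4a and Elf3 were the most abundant factors and Gata5 the least in YFP plates. Hnf4a averaged 541 ± 48.7 CPM and Elf3 481 ± 27.6 CPM in YFP plates (SD, n = 5), against 41.9 ± 6.70 CPM for Gata5. The other members lay between these levels there, and the replicate levels of every member in every group are shown in the plot of levels by replicate. In wells thinned to 1500 counts each, at least 1 of the 10 factors was detected in 82.9% to 97.6% of wells per replicate, and the median well held 2 of the 10 in organoid and YFP replicates and 3 in both Lgr5-EGFP plates. At this depth detection ranged widely, with Elf3 in 30.7% to 60.7% and Hnf4a in 18.7% to 57.7% of thinned wells per replicate, and Gata5 in 2.54% to 17.9%. Comparisons were made over replicates.

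**Figure D1:**
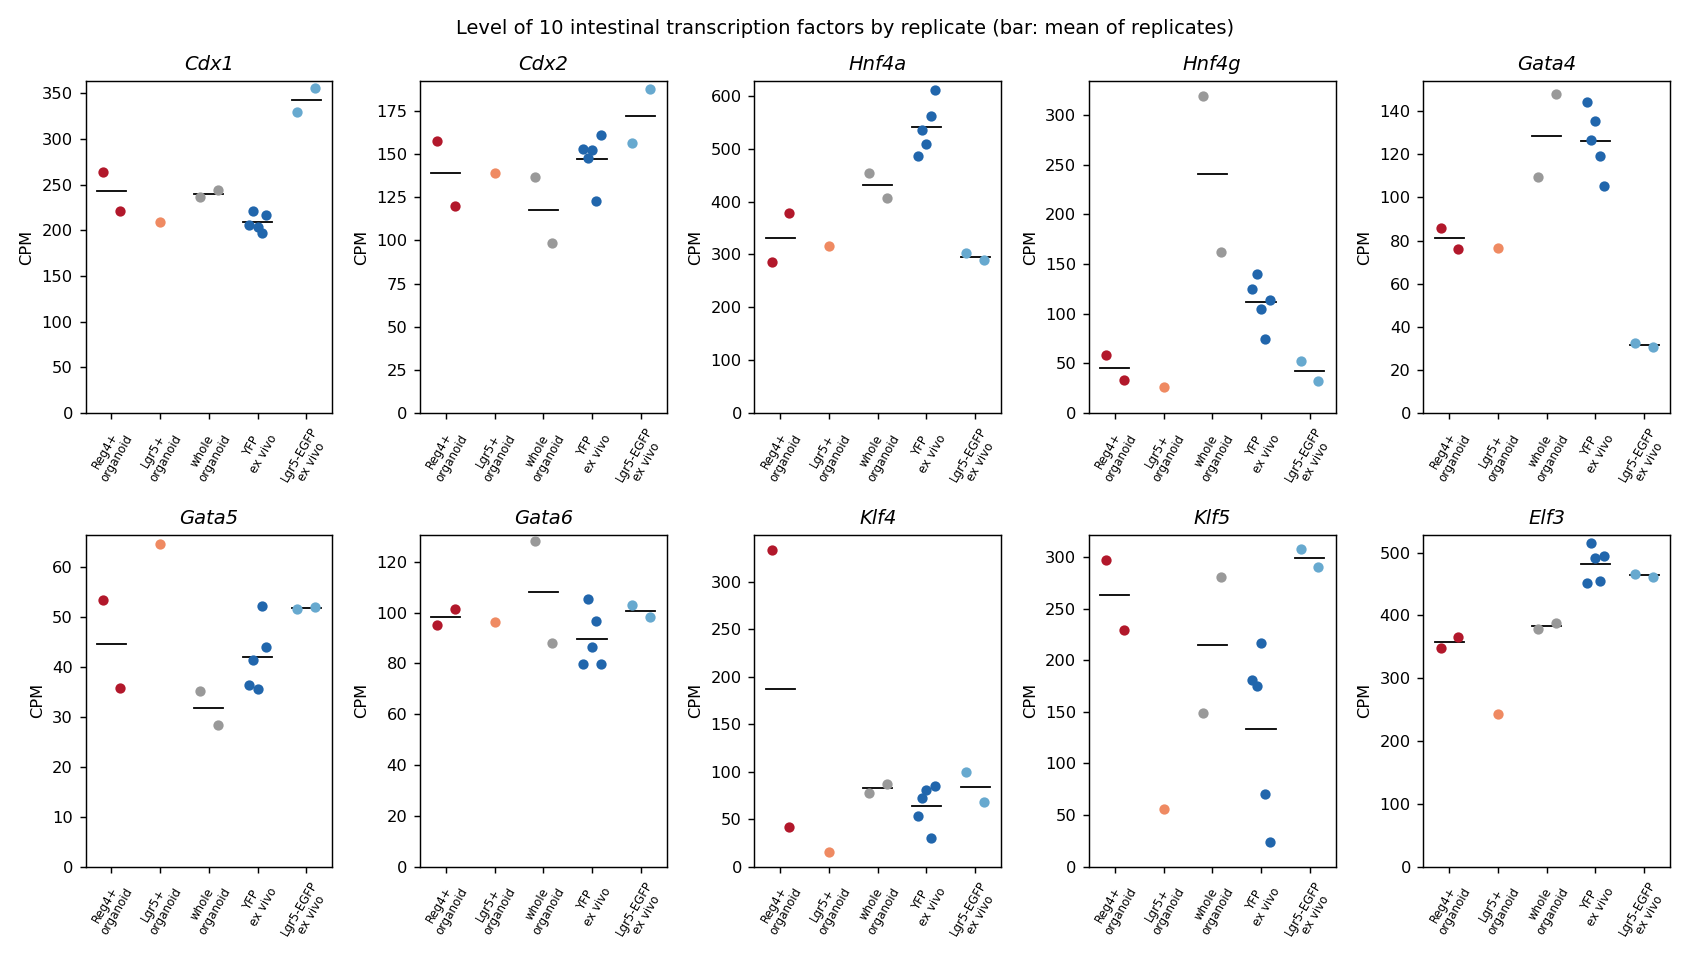
Level (CPM, linear axis from 0) of each of the 10 factors in 12 replicates of 5 groups. Each point is 1 replicate and each bar the mean of replicates. Gata4 lay between 105 and 144 CPM in the 5 YFP plates, against 30.6 and 32.3 CPM in the Lgr5-EGFP plates.

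The first comparison asked how the factors differ between 5-day progeny and stem cells taken from intestine. Progeny had more Gata4, Hnf4g and Hnf4a and less Cdx1 than Lgr5-EGFP stem cells, while no difference in Cdx2, Gata5, Gata6, Klf4, Klf5 or Elf3 passed the test. By edgeR's quasi-likelihood test with Benjamini-Hochberg adjustment over all genes, 3 of 10 factors rose and 1 fell, where 25.7% of 9065 genes were called (14.7% up and 11% down). The median log2 fold change of the 10 factors was -0.19, against -0.0041 over all genes tested. Genotype, sort and mouse differ between these groups together with the stage of the cells and cannot be told apart from it.

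Gata4, a factor of proximal small intestine, had 144.3, 126.7, 135.4, 119.1 and 105.1 CPM in the YFP plates, against 32.3 and 30.6 CPM in the Lgr5-EGFP plates. All 5 YFP plates lay above both stem cell plates, with a log2 fold change of 2.02 (SE 0.17, adjusted p = 9.8e-06 by edgeR). The counts behind the stem cell values were 37 and 47, so the low level rests on few molecules. In thinned wells, Gata4 was detected in 10.3% to 20.5% of wells of YFP plates, against 4.0% and 1.2% in Lgr5-EGFP plates, where the 1.2% is a single well in a single draw. Expected over all draws, the shares were 12.5% to 17.6% in YFP plates, against 3.76% and 3.86% in Lgr5-EGFP plates, and at 3000 counts they were 21.7% to 36.5% in YFP plates, against 2.82% and 10.5% in Lgr5-EGFP plates. Gata5 and Gata6, its relatives, did not pass the test. Gata6 was 79.6 to 105.4 CPM in YFP plates and 103.0 and 98.2 CPM in Lgr5-EGFP plates, and the log2 fold change was -0.17 (SE 0.15, adjusted p = 0.46 by edgeR). Gata5 was 35.6 to 52.1 CPM in YFP plates and 51.5 and 52.0 CPM in Lgr5-EGFP plates. Here the groups of both genes overlapped.

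The HNF4 pair, nuclear receptors of absorptive cells, rose together. Hnf4g had 124.7, 140.0, 105.0, 74.5 and 113.5 CPM in YFP plates, against 52.4 and 32.5 CPM in Lgr5-EGFP plates, a log2 fold change of 1.47 (SE 0.22, adjusted p = 0.00035 by edgeR). Hnf4a had 486.0, 536.1, 509.6, 562.2 and 611.7 CPM in YFP plates, against 302.1 and 289.9 CPM in Lgr5-EGFP plates, a log2 fold change of 0.88 (SE 0.15, adjusted p = 0.00077 by edgeR). Neither gene's groups overlapped. Hnf4a was already abundant in stem cells, where its mean of 296 ± 8.62 CPM was above that of Hnf4g at 42.4 ± 14.1 CPM (SD, n = 2 plates). Enterocyte markers moved with these genes: 21 of 24 rose in progeny and none fell. Other lists moved as well, with 6 of 9 Paneth markers, 3 of 8 goblet markers and 10 of 15 immediate early genes higher and 5 of 13 stem markers lower. The part of these shifts in the factor levels was not tested.

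Cdx1 was the only factor of the 10 that fell. It had 205.9, 221.4, 203.2, 197.3 and 216.9 CPM in YFP plates, against 330.1 and 355.6 CPM in Lgr5-EGFP plates, with no overlap and a log2 fold change of -0.70 (SE 0.13, adjusted p = 0.0016 by edgeR). Its relative Cdx2, the master regulator of intestinal fate, had 122.9 to 161.0 CPM in YFP plates, against 156.3 and 187.9 CPM in Lgr5-EGFP plates, and the groups overlapped (log2 fold change -0.21, SE 0.15, adjusted p = 0.34 by edgeR). In thinned wells, Cdx1 was detected in 22.5% to 32.4% of wells of YFP plates, against 44.0% and 51.2% in Lgr5-EGFP plates. These 4 calls held in all 15 alternative settings, with log2 fold changes of 1.97 to 2.76 for Gata4, 1.13 to 1.83 for Hnf4g, 0.79 to 0.92 for Hnf4a and -0.75 to -0.65 for Cdx1.

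**Figure D2:**
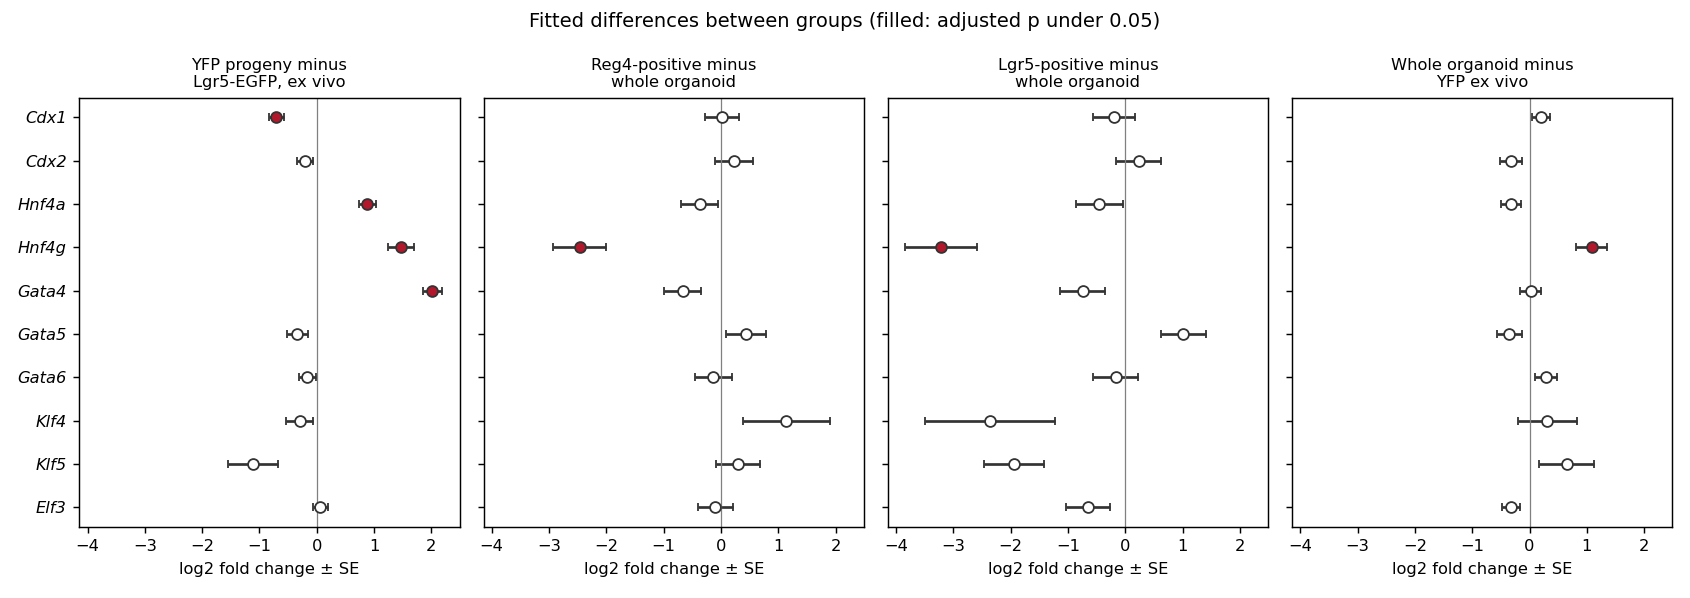
Fitted log2 fold change (point) with its standard error (bar) of each factor in 4 comparisons, positive where the group named first is higher. Filled points had an adjusted p under 0.05. Hnf4g is the one factor filled in all 4 panels.

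Klf5 was split among the progeny plates. It had 180.7, 174.7, 216.7, 70.7 and 23.7 CPM in YFP plates 1 to 5, against 307.4 and 289.9 CPM in Lgr5-EGFP plates. All 5 YFP plates lay below both stem cell plates, but the spread among them was wide and the log2 fold change of -1.11 (SE 0.44, adjusted p = 0.082 by edgeR) missed the threshold. Without YFP plates 4 and 5, left out after their values were seen, it was -0.64 with an adjusted p of 0.0037 by edgeR. With the replicate block it was -0.74 with an adjusted p of 0.0040 by edgeR. Lgr5-EGFP plates have only numbers 1 and 2, so YFP plates 3 to 5 do not enter that contrast. The block therefore also sets aside the low plates 4 and 5 and is not separate support. Thinned shares were 4.4% to 27.0% of wells in YFP plates, against 46.7% and 51.2% in Lgr5-EGFP plates.

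For a pair of genes with other roles the same plates are shown beside Klf5. Eif4g1, a translation initiation factor and the gene closest to Klf5 across the 12 replicates, had 179.3, 229.4, 201.5, 96.8 and 62.7 CPM in YFP plates, against 275.9 and 301.0 CPM in Lgr5-EGFP plates. Rplp2, a ribosomal protein gene picked after its values were seen, had 1293, 1359, 1307, 18.6 and 15.3 CPM in YFP plates, against 312 and 280 CPM in Lgr5-EGFP plates. The Lgr5-positive organoid library was also low, with 55.7 CPM of Klf5, 83.5 CPM of Rplp2 and 78.5 CPM of Eif4g1. Both genes were chosen for their values in these libraries, so a shared low level follows from the choice. The part of a library difference in the Klf5 values was not tested.

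**Figure D3:**
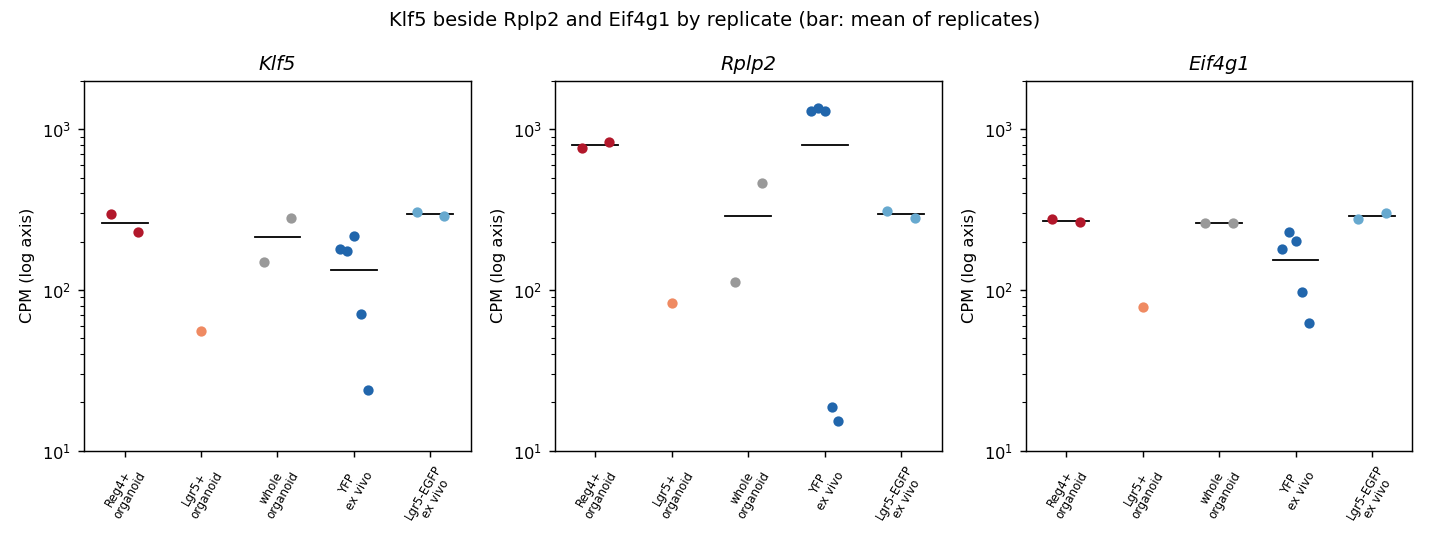
Level (CPM, log axis) of Klf5, Rplp2 and Eif4g1 in 12 replicates of 5 groups, with 1 point per replicate and a bar at the mean. YFP plates 4 and 5 lay at 70.7 and 23.7 CPM of Klf5 and at 18.6 and 15.3 CPM of Rplp2, below the other YFP plates.

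Genes known to be driven by these factors were followed from named lists. All 8 HNF4 targets rose in progeny, with a median log2 fold change of 5.49. Apoa4, an apolipoprotein of chylomicrons, averaged 446 CPM in YFP plates, against 0.8 CPM in Lgr5-EGFP plates. Fabp2, the intestinal fatty acid binding protein, averaged 1181 CPM in YFP plates, against 93.5 CPM in Lgr5-EGFP plates. Of 8 CDX2 targets 4 rose and none fell. Sis, which encodes sucrase-isomaltase, averaged 161 CPM in YFP plates, against 5.5 CPM in Lgr5-EGFP plates. The adhesion protein gene Cdh17 averaged 411 CPM in YFP plates, against 193.9 CPM in Lgr5-EGFP plates. Muc2, the main goblet cell mucin, averaged 496 CPM in YFP plates and 474 CPM in Lgr5-EGFP plates and did not pass. Of 4 ileal bile acid genes known to be repressed by GATA4 in mice, 2 were tested and both rose, Slc51a to 55.1 CPM in YFP plates, against 0.3 CPM in Lgr5-EGFP plates. These target lists overlap the enterocyte markers and are not a separate readout from them.

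The promoters of 4 of these targets show the letters that the factors are known to bind. Each sequence runs 5' to 3' in the direction of the gene and ends just before its start, within 250 bases upstream. Both strands were searched. Capitals mark matches to the HNF4 motif CAAAGTNCA in Apoa4 and Fabp2. In Fabp2, Fabp1 and Sis they also mark matches to the CDX motif TTTATNG. They are RefSeq sequences of build GRCm38.p6: Apoa4 at chr9:46240594-46240695 on the + strand, Fabp2 at chr3:122894822-122895071 on the + strand, Fabp1 at chr6:71199629-71199826 on the + strand and Sis at chr3:72967864-72968113 on the - strand.
Apoa4: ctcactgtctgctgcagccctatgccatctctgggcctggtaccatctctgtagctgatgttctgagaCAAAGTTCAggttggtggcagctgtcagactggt
Fabp2: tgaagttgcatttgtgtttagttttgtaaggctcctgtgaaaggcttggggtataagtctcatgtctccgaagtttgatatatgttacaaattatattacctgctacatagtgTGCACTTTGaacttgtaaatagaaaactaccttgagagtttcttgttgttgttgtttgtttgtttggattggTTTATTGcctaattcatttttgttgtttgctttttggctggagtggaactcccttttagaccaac
Fabp1: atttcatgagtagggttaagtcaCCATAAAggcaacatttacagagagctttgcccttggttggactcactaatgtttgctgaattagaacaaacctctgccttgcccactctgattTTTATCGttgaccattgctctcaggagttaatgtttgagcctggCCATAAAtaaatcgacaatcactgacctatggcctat
Sis: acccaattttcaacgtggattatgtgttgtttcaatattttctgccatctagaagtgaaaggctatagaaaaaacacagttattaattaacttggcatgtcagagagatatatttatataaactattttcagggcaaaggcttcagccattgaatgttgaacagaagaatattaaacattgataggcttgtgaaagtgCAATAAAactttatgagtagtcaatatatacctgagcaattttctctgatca
These matches do not overlap one another. The HNF4 letters were found in 1.19% of 32851 windows of 250 bases and the CDX letters in 9.81%. Of the 8 HNF4 targets 6 had a promoter in the table, and 2 of these held the HNF4 letters. Of the 8 CDX2 targets 7 had one, and 2 held the CDX letters. Of the 10 factors themselves 5 had one, and none held the HNF4 or CDX letters in this window. The GATA letters AGATAA, on either strand, stood upstream of at least 1 start of Hnf4a but not of all its starts, and in 9.99% of all windows. A match describes letters only. The printed promoters are all among those that hold a match, so they do not stand for their lists. Fabp1 is an HNF4 target without the HNF4 letters in this window, and neither Fabp1 nor Fabp2 is on the CDX2 target list.

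Relatives and partners of these factors were counted in the same comparison. Of 18 relatives in the CDX, GATA, KLF and ELF families 11 were tested, 4 fell and none rose in progeny. Over all genes tested 11% fell and 14.7% rose. The most abundant relative, the epithelial ETS factor Ehf, averaged 131.6 CPM in YFP plates and 146.7 CPM in Lgr5-EGFP plates and did not pass. Klf13 fell, at 58.7 CPM in YFP plates, against 94.7 CPM in Lgr5-EGFP plates. Of 31 partner factors 25 were tested, 4 rose and 4 fell, a share near the 25.7% of all genes called. Vdr, the vitamin D receptor, Sox9, a crypt progenitor factor, and Hes1, a Notch effector, did not pass.

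In organoids, the sorted groups were set against whole organoid cells to ask how secretory and stem cells in culture carry these factors. Hnf4g was the single factor called in both comparisons, and it was lower in each sorted group. In Reg4-positive cells 1 of 10 factors fell, where 6.46% of 10522 genes were called (2.39% up and 4.07% down), and in Lgr5-positive cells 1 of 10 fell, where 3.63% were called (0.656% up and 2.97% down). Both comparisons share the whole organoid libraries, the 3 organoid groups share a single estimate of spread, and genotype, mouse and sort cannot be told apart.

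Hnf4g had 58.0 and 32.9 CPM in Reg4-positive cells, against 319.4 and 161.9 CPM in whole organoid cells, a log2 fold change of -2.46 (SE 0.46, adjusted p = 0.023 by edgeR). The groups did not overlap. The call was lost without Reg4-positive replicate 1 (-2.87, adjusted p = 0.060 by edgeR), without Reg4-positive replicate 2 (-2.02, adjusted p = 0.055 by edgeR) and in thinned wells (-2.17, adjusted p = 0.076 by edgeR). It held without the 3 wells above 100000 counts, at -2.40 with an adjusted p of 0.042 by edgeR. The enterocyte markers moved with Hnf4g, with 18 of 23 tested lower in Reg4-positive cells and none higher, and their part in the difference was not tested.

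Klf4, a goblet cell factor, differed most between the Reg4-positive replicates. It had 333.9 CPM in replicate 1 and 41.3 CPM in replicate 2 of Reg4-positive cells, against 78.0 and 86.9 CPM in whole organoid cells, so the replicates stood on either side of the whole organoid libraries and the difference did not pass (log2 fold change 1.14, SE 0.76, adjusted p = 0.43 by edgeR). Secretory markers differed between these replicates too, not all in the direction of Klf4. The 8 goblet markers summed to 19896 and 7617 raw CPM in Reg4-positive replicates 1 and 2, against 758 and 4237 raw CPM in whole organoid replicates. The 9 Paneth markers summed to 126262 and 43814 raw CPM in Reg4-positive replicates 1 and 2, against 351 and 5555 raw CPM in whole organoid replicates. The 13 enteroendocrine markers ran the other way between the Reg4-positive replicates, at 5820 and 20974 raw CPM, against 2494 and 37.3 raw CPM in whole organoid replicates. All 3 sums were above both whole organoid libraries in each Reg4-positive replicate, unlike Klf4, and their part in its level was not tested. Without Reg4-positive replicate 2 the log2 fold change of Klf4 was 2.04 (adjusted p = 0.0096 by edgeR), and without replicate 1 it was -0.99 (adjusted p = 0.20 by edgeR), so its direction rests on a single library.

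No other factor passed between Reg4-positive and whole organoid cells. Cdx1 had 264.4 and 221.6 CPM in Reg4-positive cells, against 236.3 and 244.2 CPM in whole organoid cells, with a log2 fold change of 0.02 (SE 0.30, adjusted p = 0.99 by edgeR). Elf3 had 347.8 and 366.3 CPM in Reg4-positive cells, against 378.0 and 388.3 CPM in whole organoid cells, with a log2 fold change of -0.10 (SE 0.30, adjusted p = 0.89 by edgeR). Gata4 had 85.8 and 76.1 CPM in Reg4-positive cells, against 109.3 and 148.1 CPM in whole organoid cells, and did not pass although the groups did not overlap (log2 fold change -0.67, SE 0.32, adjusted p = 0.27 by edgeR). Hnf4a had 285.2 and 378.5 CPM in Reg4-positive cells, against 454.4 and 406.7 CPM in whole organoid cells, also without overlap and without passing (log2 fold change -0.37, SE 0.32, adjusted p = 0.56 by edgeR). Standard errors of 0.30 to 0.76 on the log2 scale mean that changes of modest size in this comparison were not detectable. Of the 8 HNF4 targets 6 fell and 1 rose. This was the carrier protein gene Ttr, named after its values were seen, which averaged 155.5 CPM in Reg4-positive cells, against 28.6 CPM in whole organoid cells. Of the 8 CDX2 targets 1 rose, Muc2, and 2 fell, among them Sis at 212.8 CPM in Reg4-positive cells, against 1741 CPM in whole organoid cells. Of 28 partner factors tested 6 rose and 2 fell, beside 2.39% of all genes called up and 4.07% down. Among them Sox9 rose to 342.6 CPM in Reg4-positive cells, against 96.9 CPM in whole organoid cells.

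In Lgr5-positive organoid cells, Hnf4g had 25.8 CPM, against 319.4 and 161.9 CPM in whole organoid cells, a log2 fold change of -3.22 (SE 0.62, adjusted p = 0.036 by edgeR). This group has 1 replicate, whose spread was assumed to be that of the other organoid groups. The call was lost in thinned wells (-3.08, adjusted p = 0.15 by edgeR) and without the 3 Reg4-positive wells above 100000 counts (-3.20, adjusted p = 0.064 by edgeR), which enter through the shared spread. Here 16 of 23 enterocyte markers tested were lower and none higher, and their part was not tested. Klf4 and Klf5 were also low, at 15.9 and 55.7 CPM in Lgr5-positive organoid cells, against 78.0 and 86.9 CPM of Klf4 and 148.8 and 281.0 CPM of Klf5 in whole organoid cells. Neither passed in the fit (adjusted p = 0.28 for Klf4 and 0.087 for Klf5 by edgeR), while both passed without whole organoid replicate 1 (adjusted p = 0.0077 and 0.0061 by edgeR). In thinned wells the Klf5 log2 fold change was -0.30, against -1.94 in full counts. Gata5 was the one member with its highest replicate level here, at 64.6 CPM in Lgr5-positive organoid cells, against 35.2 and 28.3 CPM in whole organoid cells, with an adjusted p of 0.20 by edgeR. Of the HNF4 targets 5 fell and 1 rose, again Ttr at 132.2 CPM in Lgr5-positive organoid cells, against 28.6 CPM in whole organoid cells, and Fabp1 had no count at all in the Lgr5-positive library.

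Whole organoid cells were then set against YFP progeny, which asks how culture carries the factors compared with intestine. Hnf4g was the single member called, higher in whole organoid cells, where 22.9% of 10632 genes were called (13.4% up and 9.45% down). It had 319.4 and 161.9 CPM in whole organoid cells, against 74.5 to 140.0 CPM in YFP plates, with no overlap and a log2 fold change of 1.08 (SE 0.27, adjusted p = 0.011 by edgeR). The call rests on whole organoid replicate 1, without which it was 0.50 with an adjusted p of 0.30 by edgeR, and it was also lost without YFP plates 4 and 5 (0.93, adjusted p = 0.054 by edgeR). The enterocyte marker sum was higher in that replicate too. Of the marker lists, 14 of 24 enterocyte markers were higher in whole organoid cells than in YFP plates, and 8 of 9 Paneth, 9 of 13 stem, 3 of 8 goblet and 4 of 6 cycling markers were lower. Of 15 immediate early genes 7 were higher and 2 lower. The part of these shifts in the Hnf4g level was not tested. Culture, mouse, genotype and sort cannot be told apart here.

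The remaining members did not pass between culture and intestine. Gata4 had 109.3 and 148.1 CPM in whole organoid cells, against 105.1 to 144.3 CPM in YFP plates, a log2 fold change of 0.02 (SE 0.18, adjusted p = 0.97 by edgeR). Hnf4a had 454.4 and 406.7 CPM in whole organoid cells, against 486.0 to 611.7 CPM in YFP plates, and Elf3 had 378.0 and 388.3 CPM, against 451.0 to 514.8 CPM in YFP plates. Both were lower in each organoid library than in any YFP plate, but their log2 fold changes of -0.33 (SE 0.18, adjusted p = 0.21 by edgeR) and -0.33 (SE 0.16, adjusted p = 0.15 by edgeR) did not pass. Of 13 relatives tested 5 rose and 3 fell, beside the 22.9% of all genes called. Klf6 rose to 211.2 CPM in whole organoid cells, against 70.7 CPM in YFP plates, Elf1 rose to 141.1 CPM, against 80.4 CPM in YFP plates, and Ehf fell to 59.2 CPM, against 131.6 CPM in YFP plates. Of the HNF4 targets 5 rose and 1 fell, and of the CDX2 targets 1 rose and 2 fell.

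Within groups, wells were ordered from stem-like to enterocyte-like by the mean log2 level of 24 enterocyte markers minus that of 13 stem markers, none of them a member, and cut into 3 equal sets in each replicate. The enterocyte end was then tested against the stem end with the replicate as a block and without the marker genes. The stem end reached up to a marker difference of 1.403 and 0.3 in whole organoid replicates 1 and 2. In YFP plates the enterocyte end began at -0.231 to 0.686. The ends therefore do not mark the same stretch of the order in each replicate. Hnf4g climbed steeply along this order in both sources, whereas Hnf4a stayed level. In YFP plates 3 of 10 members rose toward the enterocyte end, where 26.8% of 5748 genes were called (15.2% up and 11.7% down), and in whole organoid cells 2 rose and 1 fell, where 54.5% were called (27% up and 27.5% down). The wells were ordered by other genes of the same wells, so this describes wells along marker levels. The ends differed in other markers as well: toward the enterocyte end 9 of 9 Paneth markers fell in both sources, while 5 of 6 goblet markers tested rose in YFP plates and 6 of 6 fell in whole organoid cells. Of 6 enteroendocrine markers tested 5 rose in YFP plates and 5 fell in whole organoid cells, and of 6 cycling genes 2 fell in YFP plates and 6 in whole organoid cells. The part of these lists in the slopes was not tested.

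**Figure D4:**
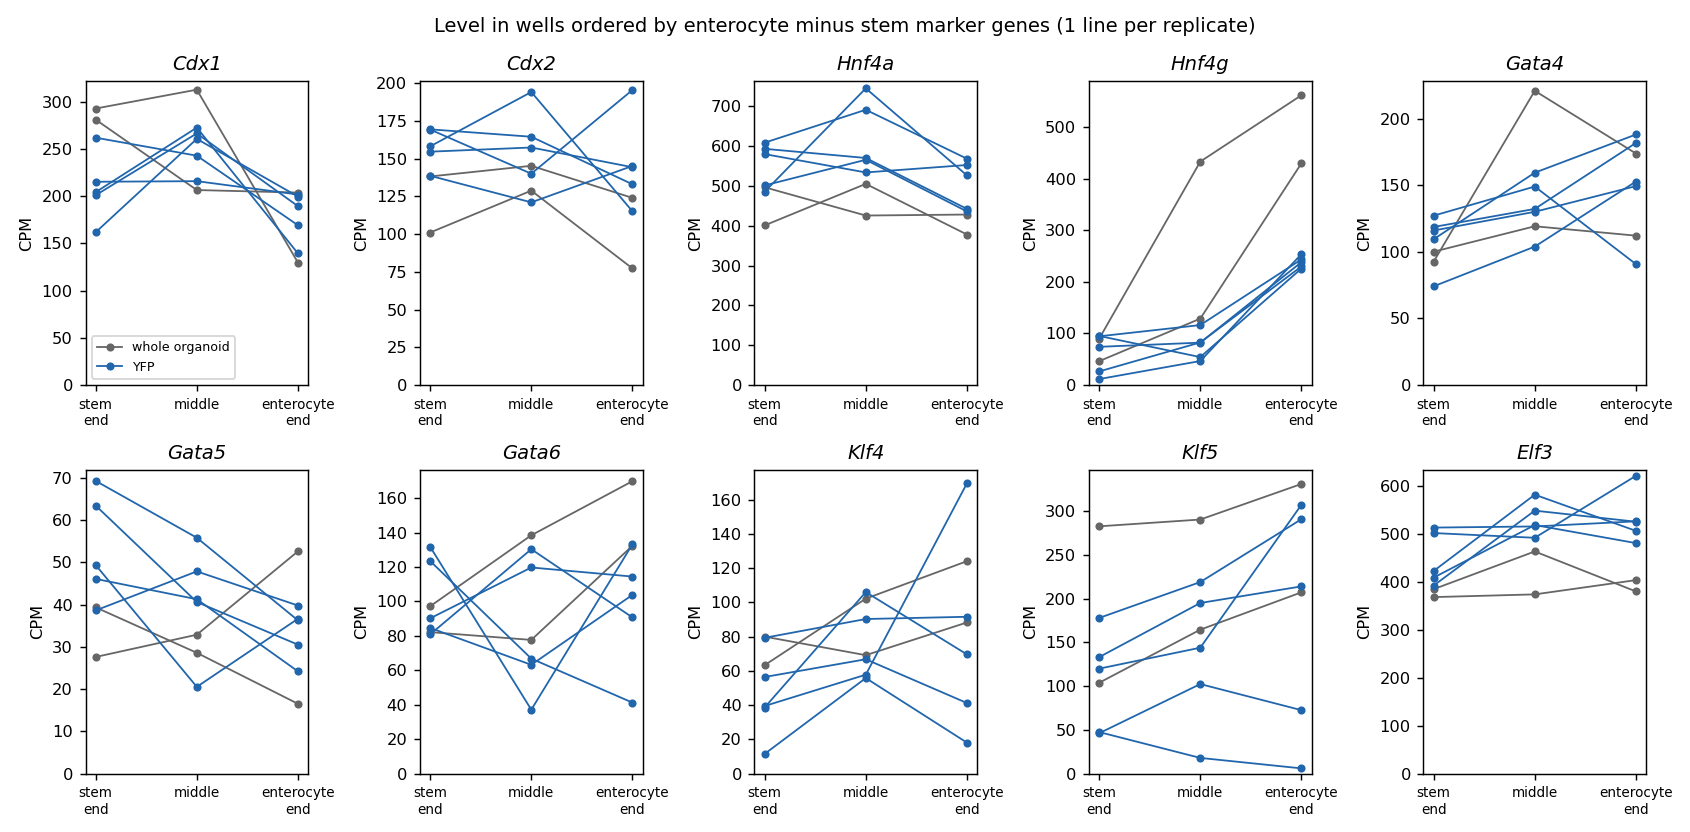
Level (CPM, linear axis from 0) of each factor in the stem-end, middle and enterocyte-end wells of each replicate, with 1 line per replicate of whole organoid cells (grey) and YFP plates (blue). Hnf4g lay at 226 to 254 CPM in the enterocyte-end wells of YFP plates, against 11.6 to 95.2 CPM in their stem-end wells. The 11.6 CPM rests on 1 count.

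Hnf4g had 238.5, 243.8, 230.2, 254.0 and 226.0 CPM in the enterocyte-end wells of YFP plates, against 74.1, 94.5, 26.4, 11.6 and 95.2 CPM in their stem-end wells. The stem-end values of YFP plates 3 and 4 rest on 4 counts and 1 count. Hnf4g was higher in 5 of 5 plates, with a log2 difference of 1.85 (SE 0.26, adjusted p = 2.6e-05 by edgeR). In whole organoid cells it had 562.2 and 430.2 CPM at the enterocyte end, against 89.6 and 46.2 CPM at the stem end, a log2 difference of 2.81 (SE 0.27, adjusted p = 6.9e-08 by edgeR). The middle wells differed between the whole organoid replicates, at 433.4 and 128.8 CPM. Both calls held in every alternative tried. Hnf4a showed no such slope, with 435.7 to 568.2 CPM at the enterocyte end and 485.2 to 608.4 CPM at the stem end of YFP plates, higher in 1 of 5 plates (log2 difference -0.10, SE 0.13, adjusted p = 0.61 by edgeR). In whole organoid cells Hnf4a had 428.0 and 377.8 CPM at the enterocyte end, against 496.5 and 400.7 CPM at the stem end (adjusted p = 0.36 by edgeR). Of the 8 HNF4 targets only Ttr was tested along the order, since the others are enterocyte markers. Ttr fell in both sources and was called in each, with log2 differences of -1.41 in YFP plates and -4.145 in whole organoid cells. The difference of its slopes, -2.734, was called as well.

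Cdx1 fell toward the enterocyte end of whole organoid cells, at 203.8 and 129.6 CPM, against 281.1 and 292.8 CPM at the stem end (log2 difference -0.82, SE 0.21, adjusted p = 0.0031 by edgeR). The call was lost without whole organoid replicate 2 (-0.44, adjusted p = 0.23 by edgeR). In YFP plates Cdx1 was higher at the enterocyte end in 1 of 5 plates and did not pass (-0.22, SE 0.19, adjusted p = 0.42 by edgeR). Cdx2 did not pass in either source. Gata6 rose toward the enterocyte end of whole organoid cells, at 169.8 and 132.4 CPM, against 97.2 and 82.2 CPM at the stem end (0.70, SE 0.26, adjusted p = 0.029 by edgeR), a call lost without either replicate (adjusted p = 0.19 and 0.056 by edgeR). In YFP plates Gata6 did not pass, with plate 1 opposite to the other plates, at 41.3 CPM at the enterocyte end, against 123.5 CPM at the stem end.

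Gata4 and Klf5 rose along the order in YFP plates, with weaker support. Gata4 had 90.7 to 188.0 CPM at the enterocyte end, against 74.1 to 127.1 CPM at the stem end of YFP plates, higher in 4 of 5 (log2 difference 0.63, SE 0.22, adjusted p = 0.039 by edgeR). Its call held in 4 of 13 alternatives and was lost among others without YFP replicate 1, 2, 3 or 5 (0.51 to 0.66, adjusted p = 0.077 to 0.20 by edgeR). Klf5 had 307.3, 214.0, 290.7, 72.6 and 6.1 CPM at the enterocyte end, against 120.0, 133.1, 177.9, 46.2 and 47.6 CPM at the stem end of YFP plates (0.80, SE 0.27, adjusted p = 0.034 by edgeR). The plate 5 values rest on 1 count at the enterocyte end and 9 at the stem end, and those of plate 4 on 4 counts each. Klf5 was higher in 4 of 5 plates, and its call held in 8 of 14 alternatives, being lost among others without YFP replicate 1, 2 or 3. Elf3 was higher in 5 of 5 YFP plates at 481.5 to 622.0 CPM, against 392.8 to 513.9 CPM at the stem end, and missed the threshold (0.29, SE 0.13, adjusted p = 0.11 by edgeR).

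Whether slopes differ between culture and intestine was tested by the interaction of end and source. The ends were cut within each replicate, so they span unlike stretches of the marker order in culture and intestine. None of the 10 members was called by edgeR or by DESeq2, where 20.6% of 5748 genes were called (8.68% up and 11.9% down), while 3 had an unadjusted p under 0.05. These were Hnf4g (difference of log2 differences 0.96, SE 0.39, adjusted p = 0.084 by edgeR), Gata6 (0.83, SE 0.37, adjusted p = 0.12 by edgeR) and Cdx1 (-0.60, SE 0.28, adjusted p = 0.14 by edgeR). A slope called in one source and not in the other is therefore not shown to differ. Hnf4g passed in 5 of 16 alternatives, with values of 0.48 to 1.397. CDX2 targets outside the enterocyte and stem lists were counted along the order too. All 5 tested rose in YFP plates, where 15.2% of all genes tested rose. In whole organoid cells 4 rose, where 27% of all genes tested rose, and Muc2, also a goblet marker, fell. Of 20 partner factors tested, 7 rose and 6 fell in YFP plates, and 10 rose and 6 fell in whole organoid cells. Over all genes tested 26.8% were called in YFP plates and 54.5% in whole organoid cells. Sox9 fell in both, with log2 differences of -1.76 in YFP plates and -3.12 in whole organoid cells.

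Secretory wells were examined through marker-rich wells, the 71 organoid and 49 ex vivo wells with the largest share of counts in a marker list. These are ranges of a score and not cell types, values are raw CPM of the pooled wells, and intervals are exact Poisson 95% intervals of counting error. Klf4 was concentrated in goblet- and Paneth-marker-rich wells and Hnf4g in enterocyte-marker-rich wells. In organoids, Klf4 was 279.9 raw CPM (236.7 to 328.8) in 71 goblet-marker-rich wells, against 60.5 raw CPM in the 644 other wells. In ex vivo wells it was 286.7 raw CPM (250.03 to 327.1) in 49 goblet-marker-rich wells, against 43.9 raw CPM in the 445 others. The rich wells were higher in 3 of 3 organoid and 6 of 6 ex vivo replicates that held at least 5 of them. Of the 71 organoid wells 35 came from Reg4-positive replicate 1, where Klf4 was 391 raw CPM, against 229 in other wells. In Reg4-positive replicate 2 it was 153, against 17.9, and in whole organoid replicate 2 it was 228, against 77. The factor thus differed between replicates. In enterocyte-marker-rich wells Klf4 was also higher in 2 of 2 organoid and 3 of 4 ex vivo replicates with at least 5 such wells. The pooled gap was smaller there in organoids, at 96.8 raw CPM, against 75.45 in other wells. Ex vivo the pooled level ran the other way, at 70.5 raw CPM, against 79.97 in other wells.

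Paneth-marker-rich wells gave 305.2 raw CPM of Klf4 in organoids, against 59.3 in other wells, and 169.4 raw CPM ex vivo, against 66.3 in other wells. Of the rich organoid wells 43 came from Reg4-positive replicate 1, where Klf4 was 418.7 raw CPM, against 156.9 in other wells. In Reg4-positive replicate 2 it was 163.5, against 14.7. The Paneth-marker-rich wells overlap the goblet set, with 53 of 71 organoid and 21 of 49 ex vivo wells in both. Enteroendocrine-marker-rich organoid wells were low, at 27.5 raw CPM of Klf4 (13.7 to 49.1), against 80.4 in other wells, while ex vivo the same list gave 159.2, against 72.0 in other wells. That ex vivo gap was absent from thinned wells, where Klf4 was detected in 10.2% of enteroendocrine-marker-rich wells, against 10.6% of the others. In thinned goblet-marker-rich wells the gap was present: Klf4 was detected in 36.6% of thinned organoid wells, against 9.8% of the others, and in 34.7% of thinned ex vivo wells, against 7.9% of the others.

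**Figure D5:**
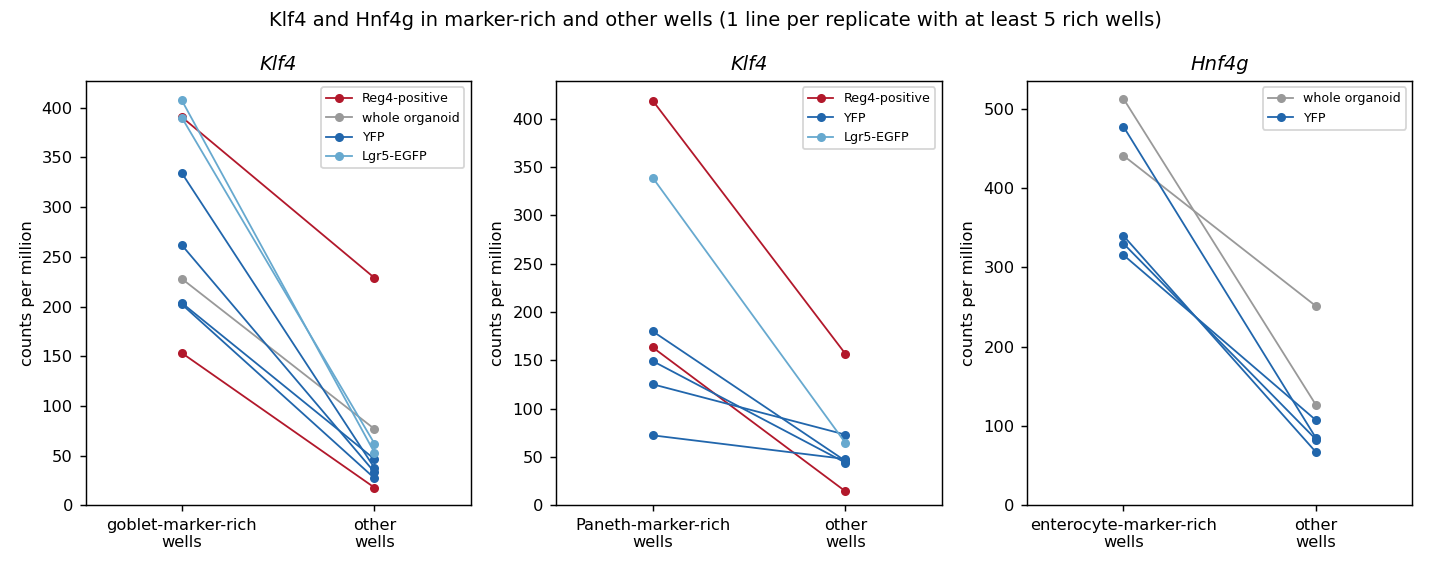
Level (raw CPM, linear axis from 0) of Klf4 in goblet- or Paneth-marker-rich wells and of Hnf4g in enterocyte-marker-rich wells, against the other wells, with 1 line per replicate that held at least 5 rich wells. All lines run down from rich to other wells.

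Hnf4g was 459.6 raw CPM (407.3 to 516.7) in enterocyte-marker-rich organoid wells, against 136.7 in other wells, and 346.2 (284.0 to 418.0) in ex vivo ones, against 69.8 in other wells. It was higher in 2 of 2 organoid and 4 of 4 ex vivo replicates with at least 5 such wells. Of the 71 organoid wells 59 came from whole organoid replicate 1, where it was 441 raw CPM, against 251 in other wells, and in whole organoid replicate 2 it was 513, against 126.3, so the factor differed between replicates. In goblet-marker-rich organoid wells it was 18.9 raw CPM (9.07 to 34.8), against 177.4 in other wells, but most of the rich wells were Reg4-positive. Within replicates it was 15.8, against 71.9 in other wells, in Reg4-positive replicate 1, 16.4, against 35.8, in Reg4-positive replicate 2 and 36.0, against 165.2, in whole organoid replicate 2, so it was lower in 3 of 3 by a smaller factor than in the pool. Hnf4a differed less, at 300.4 raw CPM in enterocyte-marker-rich organoid wells, against 386.2 in other wells, and at 452.0 ex vivo, against 448.0 in other wells. Cdx1 was low in enterocyte-marker-rich wells, with 114.9 raw CPM in organoids, against 232.1 in other wells, and 115.4 ex vivo, against 304.3 in other wells. Gata4 in these wells was 95.2 raw CPM in organoids, against 101.6 in other wells, and 147.5 ex vivo, against 83.0 in other wells. None of the 49 rich ex vivo wells came from Lgr5-EGFP plates, which stand only among the other wells. Within YFP plates 1, 2, 3 and 5, Gata4 was 151, 147, 127 and 169, against 134, 114, 125 and 95. Cdx1 in the same plates was 94, 180, 99 and 28, against 211, 209, 199 and 215.

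Within single wells, family members were found together and apart. Of 485 whole organoid wells, Hnf4a and Hnf4g were both counted in 255, Hnf4a alone in 128 and Hnf4g alone in 31, and of 335 YFP wells both were counted in 155, Hnf4a alone in 141 and Hnf4g alone in 11. Wells with Hnf4g alone were thus the fewest in both groups, at unequal depth and with Hnf4a the more abundant gene. Gata4 and Gata6 were both counted in 157 of the whole organoid wells and in 100 of the YFP wells. Klf4 alone was counted in 37 whole organoid and 42 YFP wells, Klf5 alone in 143 and 117, and both in 116 and 50.

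Across the 12 replicates, the genes most like each member were listed by Pearson correlation of log2(CPM + 1) among 3731 genes with a mean of at least 50 CPM. The 12 points share groups and libraries, so the values describe these replicates only. Hnf4a was closest to Ndufa4 (r = 0.97), Ndufb11 and Atp5b, which encode parts of mitochondrial respiratory complexes and ATP synthase. Hnf4g was closest to Prpsap1 (r = 0.96), Calr and Smdt1, and Gata4 to Ctsh (r = 0.95), Ces2e and Fau. Gata5 was closest to Rgmb (r = 0.89) and Rnf43, both genes of the stem marker list. Klf4 was closest to Vimp (r = 0.88), Cmas and Fosb, and Elf3 to Irf1 (r = 0.90), Id1 and Dmbt1. Cdx1 was closest to Bspry (r = 0.87), Cdx2 to Blmh (r = 0.86) and Gata6 to Cdk11b (r = 0.77).

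In the GRCm38 annotation, the 10 genes lie on separate chromosomes except for Hnf4a with Gata5, Gata4 with Klf5 and Cdx1 with Gata6. Elf3 is at chr1:135253575-135258568, Hnf4a at chr2:163506808-163572910, Gata5 at chr2:180325133-180334699, Hnf4g at chr3:3508030-3658052 and Klf4 at chr4:55527143-55532466. Cdx2 is at chr5:147300805-147307270, Gata4 at chr14:63198922-63271692, Klf5 at chr14:99298691-99315036, Gata6 at chr18:11052064-11085635 and Cdx1 at chr18:61018862-61036199. All are protein-coding genes.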

How the data were processed

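Values were deposited as UMI-based estimated counts per gene and well, in which the authors counted distinct molecular barcodes of 4 bases (per the labels' protocols) and corrected them for repeats among 256 possible ones (as the values show). How reads were counted and filtered is not stated in the labels used. The submitters' processing notes name BWA 0.6.2-r126 as a tool and mm10 (GRCm38) as the build. The 92 spike-in rows and the reporter row were left out, estimated counts were rounded, and wells under 1500 counts were dropped. Wells of a labelled replicate were summed. No 2 kept wells were identical. The Lgr5-positive organoid table was matched by its name, the Reg4-positive tables hold 1 and 2 plates, and 192 columns of 2 tables that matched no label were not used. YFP plate 4 has 48 wells. edgeR 4.0.16 (R 4.3.3) quasi-likelihood tests used TMM scaling, filterByExpr and Benjamini-Hochberg adjustment over all genes tested, at a false discovery rate of 0.05, and were tested on simulated data. The organoid comparisons share a fit of 5 libraries, culture against intestine used all 12, and the ordered wells used the replicate as a block. DESeq2 1.42.0, other scaling, no filter, 3000 counts per well, thinned wells, left-out replicates and other well orders were the alternatives. Shares come from wells thinned to 1500 counts. Intervals cover counting error only. The members always are named. Of each list, up to 4 genes of highest mean level are named per comparison, and for each member the 3 genes most like it. Members and lists were chosen with earlier results of these data known. Coordinates are GENCODE M21.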

Additional observations from a re-analysis of the deposited data

Results flagged for a closer look

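In 30 groups of 5 YFP plates (levels, thinned shares and differences between well ends of the 10 factors), 2 held a plate far from the others, and chance alone marks about 1 in 20 such groups. For Gata6, the log2 difference of enterocyte-end minus stem-end wells was -1.559 in YFP replicate 1, while the other 4 plates lay between 0.02 and 0.34. For Klf5, it was -2.774 in YFP replicate 5, the plate in which Klf5 was lowest, at 6.1 CPM in enterocyte-end wells, against 47.6 CPM in stem-end wells. These levels rest on 1 count and 9 counts.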

How the results depend on the processing

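No member's fold change turned round while called under either setting. Between YFP plates and Lgr5-EGFP plates, 4 to 5 members were called under every alternative, and 4 to 5 with replicates left out. For Reg4-positive against whole organoid cells, 1 member was called; no filter on low counts gave 2, thinned wells 0 and left-out replicates 0 to 1. For Lgr5-positive against whole organoid cells, 1 was called; DESeq2 gave 2, no filter 3, thinned wells 0, leaving out Reg4-positive wells above 100000 counts 0, a fit over all groups 2 and left-out replicates 1 to 3. For whole organoid cells against YFP plates, 1 was called; no filter gave 2, thinned wells 0, leaving out YFP plates 4 and 5 (chosen after seeing the data) 0 and left-out replicates 0 to 1. Along the well order in YFP plates 3 were called; DESeq2 gave 1, thinned wells 1 and left-out replicates 1 to 3. In whole organoid cells 3 were called; DESeq2 gave 1, an order from thinned wells 5 and an order from enterocyte genes alone 5. For the difference of slopes 0 were called; no filter, 3000 counts per well and an order from enterocyte genes alone gave 1 each, and left-out replicates 0 to 1. The cause of these changes was not tested. Thinning leaves fewer counts and also gives every well the same weight, and the part of each was not tested. Over all genes, thinning gave 528 genes called against 2330 between YFP and Lgr5-EGFP plates, 432 against 680 for Reg4-positive cells, 128 against 382 for Lgr5-positive organoid cells, 685 against 2435 between culture and intestine, 406 against 1542 along the order in YFP plates, 674 against 3134 in whole organoid cells and 208 against 1182 for the difference of slopes. Other alternatives moved the count over all genes by more than 1.5 times as well. Between YFP and Lgr5-EGFP plates it was 1199 and 1104 without Lgr5-EGFP replicate 1 or 2. For Reg4-positive cells it was 1716 with no filter, 1910 in a fit over all groups and 209 without Reg4-positive replicate 1. For Lgr5-positive organoid cells it was 1372 with no filter, 1738 in a fit over all groups, 143 without Reg4-positive wells above 100000 counts and 837 without whole organoid replicate 2. Between culture and intestine it was 1187 without whole organoid replicate 1. With an order from enterocyte genes alone it was 986 in YFP plates and 766 for the difference of slopes, which also had 564 by DESeq2 and 475 without whole organoid replicate 1. Shared replicate numbers gave no sign of pairing: deviations of same-numbered libraries correlated at -0.092 in organoids and at -0.0049 and -0.029 ex vivo. With 2 replicates each of whole organoid and Reg4-positive cells the deviations mirror each other, so the organoid value is a single check. These few values cannot decide whether the samples were paired. With the replicate block, 5 members and 2197 genes were called ex vivo, and 1 member and 418 genes for Reg4-positive cells. In the ex vivo block YFP plates 3 to 5 share no number with an Lgr5-EGFP plate and do not enter the contrast. Of single-member fold changes under alternatives, 820 kept their side of the threshold, 28 lost and 31 gained a call, 50 changed sign while not called, and 0 turned round while called. Of the shares of thinned wells per replicate, 4 lay outside their 95% interval when averaged over all draws and 75 at 3000 counts, so shares hold for the stated depth only. Depth limits the low levels, such as the 37 and 47 counts of Gata4 in Lgr5-EGFP plates.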

Other observations

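Relatives and partners of the 10 factors also sloped along the order of wells. Ehf, an epithelial ETS factor related to Elf3, fell toward the enterocyte end, by a log2 difference of -0.89 in YFP plates and -3.47 in whole organoid cells, and the slopes differed between whole organoid cells and YFP plates (-2.58, SE 0.45, adjusted p = 0.00054 by edgeR). Klf6, a KLF family member, rose toward the enterocyte end in both, by 1.30 in YFP plates and 0.87 in whole organoid cells. Vdr, the vitamin D receptor, went in opposite directions, at 1.28 in whole organoid cells and -0.85 in YFP plates, and the difference of slopes was 2.13 (SE 0.26, adjusted p = 1.7e-05 by edgeR). Goblet markers differed in slope in the same direction as Ehf, with 6 of 6 tested lower in whole organoid cells than in YFP plates, and their part in these values was not tested. Slc51a and Slc51b, the bile acid exporter subunits of enterocytes, rose toward the enterocyte end in both sources.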
